A study of Mus musculus with 33 samples.

Results

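MHC class II antigen presentation was followed through 7 genes in sorted mouse microglia: the chain genes H2-Aa, H2-Ab1 and H2-Eb1, the invariant chain gene Cd74, the peptide exchange genes H2-DMa and H2-DMb1, and the regulator Ciita. These members were taken from a list of class II chains, loading factors and their regulator, and all 7 were found among the 54146 gene identifiers of the deposited counts. The 33 libraries formed 10 groups of C57BL/6 mice. In the IRF8KO experiment, WT and IRF8KO mice were sampled at 3 months (4 libraries each), and WT, IRF8KO, 5xFAD/WT and 5xFAD/IRF8KO mice at 9 months (3 each). In the Batf3KO experiment, WT and Batf3-/- mice were sampled at 3 months (3 each). In the conditional experiment, IRF8flox mice (3) and IRF8floxCx3cr1CreERT2 mice (4) both received tamoxifen for 5 days from postnatal day 12 and were sampled at 3 months. IRF8KO and Batf3-/- are germline losses of transcription factors, so every cell of those mice carried them. 5xFAD mice carry transgenes with familial Alzheimer's disease mutations under a neuronal promoter and develop amyloid plaques. CreERT2 was driven by the Cx3cr1 gene, which is active in microglia and in other macrophages, and the study's design text says that YFP-positive cells were sorted from mice that also carried a Rosa26LSL-EYFP reporter. The labels do not say that the libraries of a group came from separate animals, so the p-values below measure only the spread between these libraries.

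Class II molecules carry peptides from ingested proteins to the cell surface, where CD4+ T cells read them. An alpha and a beta chain pair in the endoplasmic reticulum with the invariant chain, which blocks the peptide groove; in endosomes the invariant chain is cut away and H2-DM, a dimer of the H2-DMa and H2-DMb1 products, exchanges the remaining fragment for antigen peptide. Ciita is a coactivator that does not bind DNA itself and drives these genes through a protein complex on conserved promoter elements, the X and Y boxes. Resting microglia are known for low class II levels, whereas dendritic cells, B cells and border macrophages carry high levels, and microglia gain class II after interferon gamma or near amyloid plaques.

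The libraries held between 605376 and 18357762 counts in genes. The level of a gene is given as CPM, its counts scaled to the total gene counts of the library. Irf8 RNA, which checks the genotype labels, was 218 to 262 CPM in WT and 83.2 to 171 CPM in IRF8KO at 3 months, and 770 to 797 against 13.3 to 131 CPM at 9 months. In the conditional experiment it was 1018 to 1172 CPM in the 3 IRF8flox libraries and 382 to 457 CPM in 3 of the Cre libraries, but 1217 CPM in the library labelled Cre replicate 1, which goes against its label. The counts are per gene and do not resolve the deleted exons, so Irf8 RNA is a partial check. The summed level of 10 microglial markers was 63700 to 69000 CPM in the WT libraries at 9 months and of the Batf3KO experiment, 11900 to 22000 CPM in the 3-month WT libraries of the IRF8KO experiment, and 3670 to 11300 CPM in the IRF8KO libraries without 5xFAD. Neutrophil markers summed to 64600 to 165000 CPM in those IRF8KO libraries, 8530 to 53800 CPM in the 3-month WT libraries beside them, and at most 4.77 CPM in the WT libraries at 9 months and of the Batf3KO experiment. In bulk samples, fewer cells of a type and less RNA per cell cannot be told apart. The labels give female mice, but 13 libraries had reads of Y-linked genes and no Xist, 3 had both, and 1 had neither.

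All members lie on the mouse build GRCm38. Ciita spans chr16:10480059-10528418, and 5 members lie within the class II region of chromosome 17: H2-DMa at chr17:34119541-34139101, H2-DMb1 at chr17:34153072-34160230, H2-Ab1 at chr17:34257689-34269419, H2-Aa at chr17:34282744-34287823 on the minus strand, and H2-Eb1 at chr17:34305867-34316674. H2-DMa overlaps Brd2, a bromodomain gene on the opposite strand, and the counts do not use strand, so H2-DMa is reported as uncertain; Brd2 itself had 170 to 177 CPM in the WT libraries at 9 months and of the Batf3KO experiment, 36.9 to 65.6 CPM in WT and 43.6 to 111 CPM in IRF8KO at 3 months, and 7.71 to 74.4 CPM in IRF8KO at 9 months, below WT of that age as H2-DMa was. In Batf3-/- Brd2 was at 197 to 206 CPM, above its WT, as H2-DMa was. In 5xFAD Brd2 was at 60.8 to 88.3 CPM, below WT at 9 months, where H2-DMa was above WT, at 476 to 704 CPM. In the conditional experiment Brd2 was at 51.5 to 76.4 CPM in IRF8flox and 47.5 to 75.1 CPM in Cre. H2-DMa was at 50.1 to 60.4 and 36.2 to 1286 CPM there. The part of Brd2 reads in the H2-DMa counts was not tested. H2-DMb1 has a near-identical neighbour, H2-DMb2, with which reads can be split or lost, and Ciita overlaps Dexi, so both are uncertain in the same way. H2-Eb1 has an antisense partner, Gm20513. C57BL/6 mice lack a working E alpha chain gene, so the H2-Eb1 product has no partner for a surface E molecule in this strain.

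Promoter sequence from RefSeq on GRCm38.p6 was available for 4 of the 7 members, H2-Aa, H2-Eb1, H2-DMb1 and H2-DMa, as windows of 250 bases before to 50 after each start. The stretches that hold the X and Y boxes in the classical chain promoters are shown because these elements are where the Ciita complex acts. Lower case marks flanking bases, and capitals mark letters matching the X box pattern, GNAAC followed after 2 or 3 bases by TGANG, and the Y box pattern ATTGG, each searched on both strands.
H2-Aa, chr17:34287847-34287924, minus strand: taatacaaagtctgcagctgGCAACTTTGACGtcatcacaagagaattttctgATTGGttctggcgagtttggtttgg
H2-Eb1, chr17:34305756-34305832, plus strand: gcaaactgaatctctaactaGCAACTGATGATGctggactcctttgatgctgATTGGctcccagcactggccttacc
H2-DMb1, X box letters only, plus strand: GTAACTGATGATG
The X letters began 81 bases before the start in H2-Aa, 91 in H2-Eb1 and 94 in H2-DMb1, and a Y match followed within 40 bases in all 3. The X letters of H2-Eb1 and H2-DMb1 were the same at 12 of 13 positions, most of which the pattern itself fixes. Over all 32817 promoter windows of different position, 1.81% held an X pattern, 37.4% held the Y letters, and 0.18% held an X pattern followed by Y letters within 40 bases. Neither of the 2 H2-DMa windows held an X pattern, and 1 of them held the Y letters. The interferon-type letters GAAA followed after 2 bases by GAAA, found in 3.43% of windows, and the ETS-IRF letters GGAA followed after 2 bases by GAAA, found in 2.72%, were in none of the member windows. The X pattern was spelled after these promoters had been read, and a match is a description, not a binding site.

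**Figure D1:**
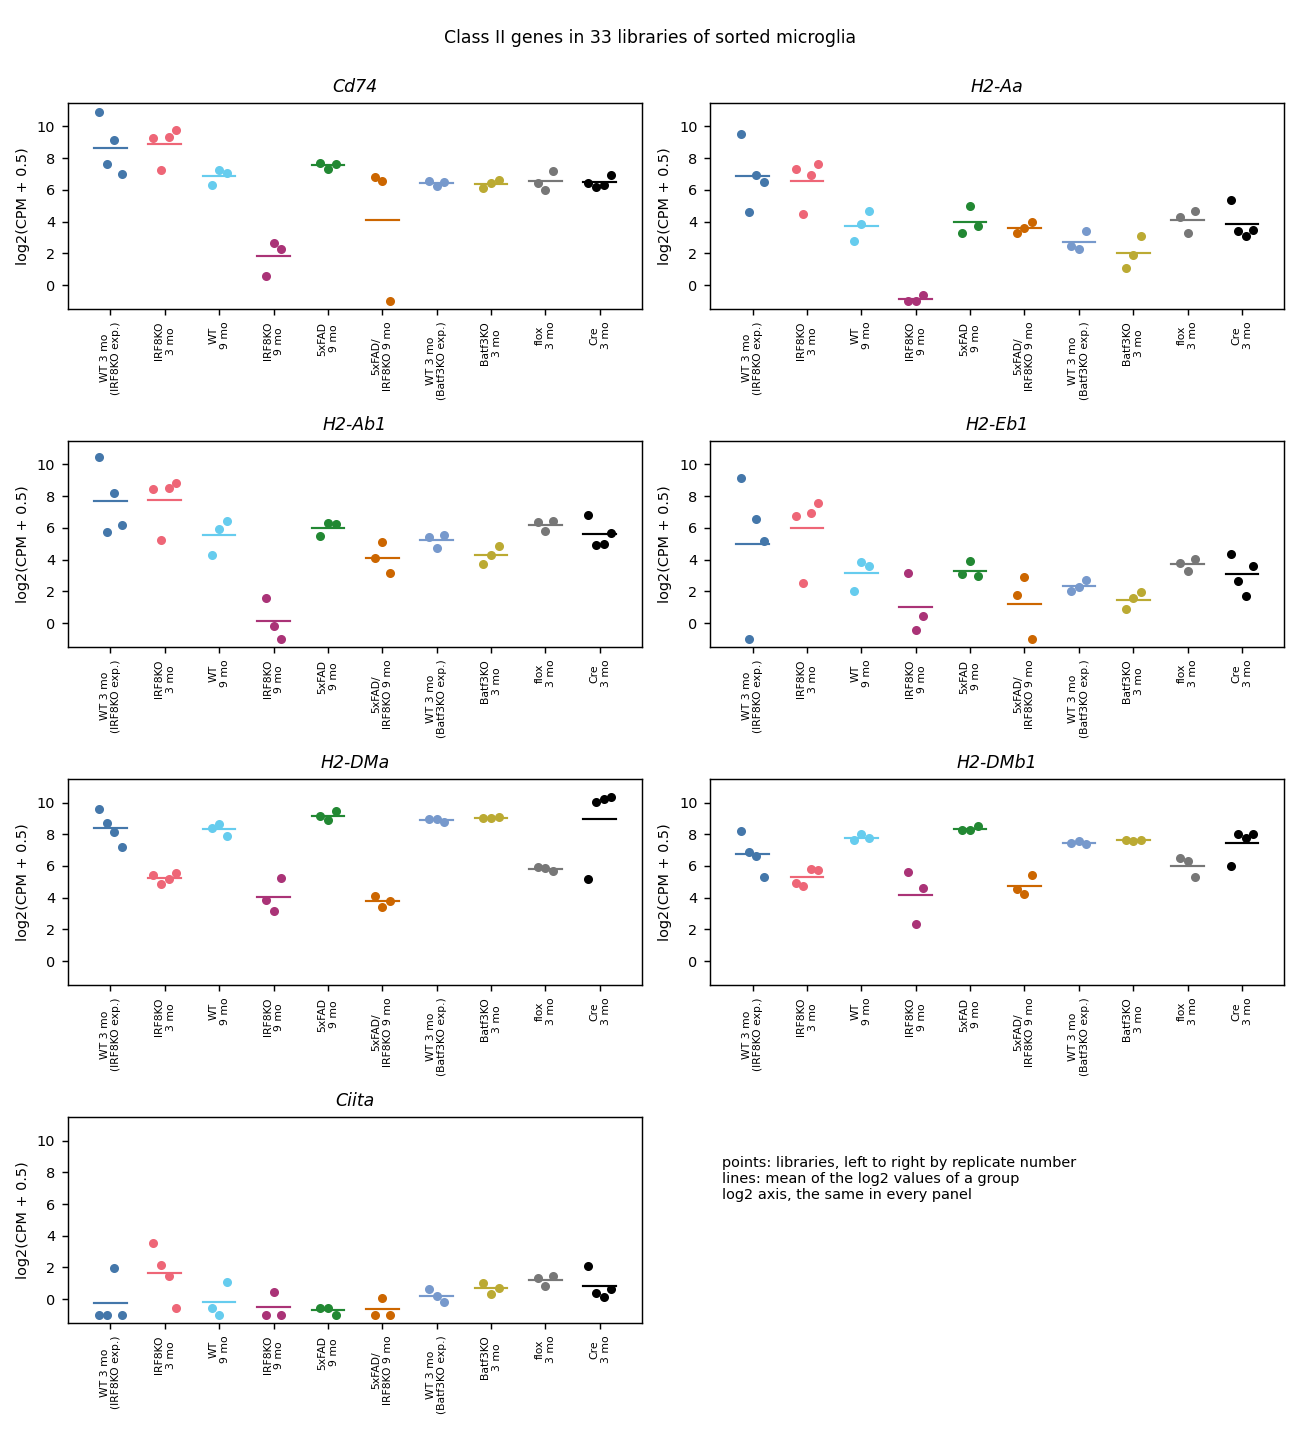
Level of each member in each of the 33 libraries, as log2(CPM + 0.5), in 1 panel per member with the groups along the horizontal axis; each point is 1 library and each line is the mean of a group's log2 values. H2-DMa and H2-DMb1 sit low in the IRF8KO groups and close together in the Batf3KO experiment, whereas Cd74 and the chains spread from 126 to 1895 CPM (Cd74) among the 4 WT libraries of the IRF8KO experiment at 3 months.

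The beta chain gene H2-Ab1 was at 1423, 53.6, 300 and 73.6 CPM in the 4 WT libraries of the IRF8KO experiment at 3 months and at 352, 37.3, 368 and 458 CPM in IRF8KO. Its 9-month levels were 19.5, 61.5 and 87.5 CPM in WT, 2.56, 0.367 and 0 CPM in IRF8KO, 44.7, 77.4 and 76.2 CPM in 5xFAD and 16.5, 33.7 and 8.27 CPM in 5xFAD/IRF8KO. The 3-month libraries of that experiment ranged over more than the 9-month ones, and IRF8KO at 9 months was below every other group without overlap. In the Batf3KO experiment H2-Ab1 was at 43.2, 26.7 and 45.8 CPM in the WT libraries, against 12.8, 19.2 and 28.3 CPM in Batf3-/-, and in the conditional experiment at 80.8, 54.5 and 87.5 CPM in IRF8flox and 110, 29.7, 31.6 and 51.2 CPM in Cre. The library labelled Cre replicate 1 was the highest of its group, at 110 CPM.

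H2-Aa, the alpha chain that pairs with the H2-Ab1 product, was at 741, 24.3, 123 and 88.7 CPM in the WT libraries, against 160, 21.9, 123 and 194 CPM in IRF8KO at 3 months. At 9 months it was at 6.25, 13.7 and 24.8 CPM in WT, had 0, 0 and 0.14 CPM in IRF8KO, was at 9.06, 30.7 and 12.4 CPM in 5xFAD and at 9.25, 11.4 and 15.0 CPM in 5xFAD/IRF8KO. Only 1 H2-Aa count was found among the 23542205 gene counts of the 3 IRF8KO libraries at 9 months, and the 0 counts of the first and second allow up to 0.366 and 0.367 CPM. Replicates 1 and 2 also had no count for 13 of 3821 and 13 of 3968 genes with at least 30 CPM in their group's other libraries. For replicate 3 these were 4 of 3525 genes, and for each WT library at 9 months 0. The part of such missing genes in the H2-Aa values was not tested. H2-Aa was at 5.05, 4.26 and 9.89 CPM in the WT libraries, against 1.59, 3.21 and 7.90 CPM in Batf3-/- mice, and at 18.9, 9.37 and 25.0 CPM in IRF8flox and 41.4, 9.93, 8.03 and 10.5 CPM in Cre. The ranges of WT and Batf3-/- overlapped, as did those of IRF8flox and Cre. These libraries carry no molecule identifiers, so the limits for a count of 0 and the counting intervals below cover counting error only.

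H2-Eb1, the E beta chain, was at 560, 0, 94.1 and 35.1 CPM in the WT libraries, against 108, 5.31, 125 and 192 CPM in IRF8KO at 3 months. The 0 in WT replicate 2 allows up to 0.272 CPM, and H2-Eb1 was the 1 gene of 2597 with at least 30 CPM in the other 3 WT libraries that had no count there. At 9 months its levels were 3.65 to 13.7 CPM in WT, 0.245 to 8.29 CPM in IRF8KO, 7.26 to 14.5 CPM in 5xFAD and 0 to 7.02 CPM in 5xFAD/IRF8KO. They were 3.65 to 6.11 CPM in WT and 1.32 to 3.32 CPM in Batf3-/- of the Batf3KO experiment, 9.16 to 16.3 CPM in IRF8flox and 2.80 to 19.6 CPM in Cre. WT and Batf3-/- did not overlap, and the other pairs did, except 5xFAD and 5xFAD/IRF8KO.

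Cd74, the invariant chain gene at chr18:60803848-60812652, had the highest group mean per length of the 4 chain genes in every group. It was at 1895, 201, 573 and 126 CPM in the WT libraries, against 610, 151, 636 and 873 CPM in IRF8KO at 3 months. At 9 months it was at 79.9, 152 and 134 CPM in WT, 0.975, 5.75 and 4.33 CPM in IRF8KO, 204, 161 and 200 CPM in 5xFAD, and 110, 93.8 and 0 CPM in 5xFAD/IRF8KO. The 3 IRF8KO libraries at 9 months were all below the WT libraries of their age, and 5xFAD/IRF8KO held a pair of libraries near WT and 1 with no count among 11723815, which allows up to 0.256 CPM. That library, replicate 3, had no count for 36 of 4061 genes that reached at least 30 CPM in the other libraries of its group, against 14 of 3882 and 1 of 3890 genes for replicates 1 and 2. The part of such missing genes in its Cd74 value was not tested. In the Batf3KO experiment Cd74 was at 91.9, 75.4 and 90.7 CPM in the WT libraries, against 70.0, 85.2 and 99.4 CPM in Batf3-/-. In the conditional experiment it was at 84.6, 64.5 and 148 CPM in IRF8flox and 87.5, 72.0, 79.8 and 120 CPM in Cre. In both experiments the groups overlapped.

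By group mean, Cd74 was highest in WT at 3 months of the IRF8KO experiment at 699 CPM ± 821 (SD, n = 4), then IRF8KO at 3 months at 567 CPM ± 302 (SD, n = 4), 5xFAD at 188 CPM ± 23.7 (SD, n = 3), WT at 9 months at 122 CPM ± 37.6 (SD, n = 3) and IRF8flox at 99.2 CPM ± 43.8 (SD, n = 3). Cre had 89.7 CPM ± 20.9 (SD, n = 4), WT of the Batf3KO experiment 86.0 CPM ± 9.18 (SD, n = 3), Batf3-/- 84.8 CPM ± 14.7 (SD, n = 3), 5xFAD/IRF8KO 67.9 CPM ± 59.4 (SD, n = 3) and IRF8KO at 9 months 3.69 CPM ± 2.45 (SD, n = 3). Among neighbours in this order, only 5xFAD and WT at 9 months had libraries that did not overlap.

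H2-DMa, the alpha chain of the peptide exchange factor, was at 760, 424, 279 and 147 CPM in the WT libraries, against 42.3, 28.2, 36.3 and 47.3 CPM in IRF8KO at 3 months. At 9 months it was at 342, 409 and 240 CPM in WT, 13.8, 8.32 and 36.9 CPM in IRF8KO, 579, 476 and 704 CPM in 5xFAD and 16.4, 10.3 and 13.4 CPM in 5xFAD/IRF8KO. Each germline IRF8KO group lay below its IRF8-carrying counterpart without overlap. In the Batf3KO experiment it was at 496, 495 and 442 CPM in the WT libraries, against 519, 520 and 534 CPM in Batf3-/-. In the conditional experiment it was at 60.4, 58.6 and 50.1 CPM in IRF8flox and 36.2, 1035, 1200 and 1286 CPM in Cre. The IRF8flox libraries were thus nearer to the germline IRF8KO libraries than to any WT library, the library labelled Cre replicate 1 was lower still, and the other Cre libraries were above every other library of the series.

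H2-DMb1, the beta chain of the same factor, was at 295, 118, 98.2 and 38.3 CPM in the WT libraries, against 30, 26.1, 56.2 and 52.4 CPM in IRF8KO at 3 months, with WT replicate 4 inside the IRF8KO range. At 9 months it was at 199, 257 and 213 CPM in the WT libraries, against 49.0, 4.65 and 23.5 CPM in IRF8KO. It was at 313, 307 and 362 CPM in 5xFAD and 22.5, 18.4 and 42.4 CPM in 5xFAD/IRF8KO. Both 9-month IRF8KO groups were below their counterparts without overlap. H2-DMb1 was at 175, 191 and 169 CPM in the WT libraries, against 197, 193 and 199 CPM in Batf3-/-, and at 90.2, 77.5 and 38.6 CPM in IRF8flox and 62.8, 256, 218 and 260 CPM in Cre. As for H2-DMa, the library labelled Cre replicate 1 lay with IRF8flox and the other Cre libraries lay above it.

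Ciita was close to the limit of detection throughout. It had no count in 9 of 33 libraries, and the groups held between 2 and 122 Ciita counts in all. Its highest level was 11.01 CPM, in a 3-month IRF8KO library, and its group means per kilobase of exon did not pass 0.456 CPM. By the same scale Cd74 had 416 CPM per kilobase in WT at 3 months of the IRF8KO experiment, 72.7 in WT at 9 months and 2.19 in IRF8KO at 9 months. H2-DMa had 117, 95.7 and 5.70 CPM per kilobase in those 3 groups, and 139 in WT of the Batf3KO experiment, where Cd74 had 51.2.

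The question put to the 3-month germline mice was what loss of IRF8 does to microglia. H2-DMa fell, and none of the other 6 members passed the test: 1 of 7 members was called, where 7.39% of all 13121 genes tested were called and 3.24% were called lower. H2-DMa fell by 3.56 in log2 units (SE 0.506, adjusted p = 0.00249 by edgeR's quasi-likelihood test with Benjamini-Hochberg adjustment over all genes, as for every adjusted p below). H2-DMb1 had a log2 change of -1.94 (SE 0.55, adjusted p = 0.0515; 0.00372 with DESeq2), and passed the test when WT replicate 3 or WT replicate 4 was left out (adjusted p = 0.0497 and 0.0192). Cd74, H2-Aa, H2-Ab1 and H2-Eb1 had -0.54 (SE 0.755), -1.23 (SE 0.877), -0.87 (SE 0.935) and -0.96 (SE 1.34), with adjusted p from 0.438 to 0.724. The direction of these 4 rested on WT replicate 1: without it the log2 changes were 0.90, 0.60, 1.07 and 1.28. Ciita had 2.29 (SE 1.62, adjusted p = 0.434). With a score of sex-linked genes as a covariate H2-DMa had -0.96 (adjusted p = 0.665), and 1 gene was called in all, 0 of them members; WT held 3 libraries with Y-linked reads and 1 with neither kind, and IRF8KO held 4 with Y-linked reads. The summed level of 9 B cell markers was 2010, 920, 1460 and 472 CPM in WT and 457 to 564 CPM in IRF8KO, and border macrophage markers summed to 36.4 to 211 against 883 to 1360 CPM. WT replicate 1 was the highest WT library for B cell markers and for 6 of the 7 members. It was also the highest for microglial, classical dendritic cell, monocyte and red blood cell markers, at 22000, 45.1, 534 and 103000 CPM. For border macrophage, T and NK cell, oligodendrocyte, neuron, astrocyte and endothelial markers it was the lowest. It held 2305663 gene counts, the fewest of its group. The part of these cells in the member levels was not tested.

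At 9 months more members were lower in IRF8KO. Of 6 members tested 5 fell, Cd74, H2-Aa, H2-Ab1, H2-DMa and H2-DMb1, where 28.3% of 14604 genes were called and 8.68% were called lower. The median log2 change of the members was -4.18 against 0.25 over all genes. Cd74 fell by 4.58 (SE 1.41, adjusted p = 0.0292), H2-Ab1 fell by 5.31 (SE 1.14, adjusted p = 0.00453), H2-DMa fell by 3.78 (SE 0.443, adjusted p = 7.11e-05) and H2-DMb1 fell by 2.76 (SE 0.595, adjusted p = 0.00485). H2-Aa was called with adjusted p = 0.000752, and since IRF8KO held 1 count its size is given from the summed counts: 74 of 8036518 in WT against 1 of 23542205, a ratio of 217 (95% exact interval 37.7 to 8676). H2-Eb1 had -1.18 (SE 1.54, adjusted p = 0.618), and Ciita was too low to be tested. The Cd74 call was the least firm: it was lost in 5 of the 6 fits that left out 1 library, all but that without IRF8KO replicate 2, with adjusted p up to 0.0745, and in voom with quality weights, where Cd74, H2-Aa and H2-Ab1 had adjusted p of 0.145, 0.0538 and 0.0501; with the sex score it was 0.127. Microglial markers summed to 63700 to 65300 CPM in WT and 3670 to 9040 CPM in IRF8KO, and neutrophil markers to 0.597 to 3.30 against 64600 to 90400 CPM. The summed level of 9 classical dendritic cell markers was 33.9 to 44.6 CPM in WT and 0.975 to 12.6 CPM in IRF8KO, where Xcr1, Clec9a and Itgae had no count. These genes were low in WT too, at 0.174 to 1.65, 0 to 0.347 and 1.65 to 7.77 CPM. Mycl was the most abundant of the markers in WT, at 14.9 to 24.8 CPM. Border macrophage markers summed to 13.2 to 17.3 against 727 to 871 CPM, and red blood cell markers to at most 52.9 against 23800 to 158000 CPM. The part of these cells in the changes was not tested. IRF8KO replicate 1 had 119 CPM of Cd79a, a B cell receptor component, and 1390 CPM of summed B cell markers. Its Cd74, at 0.975 CPM, was the lowest of its group, and H2-Aa had no count there. Its H2-Ab1, H2-Eb1 and H2-DMb1, at 2.56, 8.29 and 49.0 CPM, were the highest of its group, and its H2-DMa, at 13.8 CPM, lay between the others. The part of B cells in these levels was not tested.

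The IRF8KO effect itself was compared between ages. It was more negative at 9 than at 3 months for Cd74, by a log2 difference of -3.98 (SE 1.14, adjusted p = 0.0177), and for H2-Aa, by -6.08 (SE 1.89, adjusted p = 0.0271), a fitted size that rests on the 1 H2-Aa count of IRF8KO at 9 months. These were 2 of 7 members, where 24% of 15512 genes were called and 5.92% were called lower. H2-Ab1 had -4.35 (SE 1.58, adjusted p = 0.0548). For H2-DMa the difference was -0.12 (SE 0.709), and for H2-DMb1 -0.74 (SE 0.893). H2-DMa was thus lower in IRF8KO at both ages, with an age difference of either sign inside its error. The H2-Aa call was lost without WT replicate 4 at 3 months, WT replicate 3 at 9 months or IRF8KO replicate 1 or 2 at 9 months (adjusted p from 0.0502 to 0.0633), and H2-Ab1 was called without WT replicate 1 at 3 months, at -6.26 (adjusted p = 0.00386), without IRF8KO replicate 2 at 3 months or without IRF8KO replicate 1 at 9 months. With voom no member was called. The WT libraries of these ages also differed in makeup. Microglial markers summed to 11900 to 22000 CPM in WT at 3 months and 63700 to 65300 CPM at 9 months. Neutrophil markers summed to 8530 to 53800 and 0.597 to 3.30 CPM. Age and the cell makeup of the controls cannot be told apart here.

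**Figure D2:**
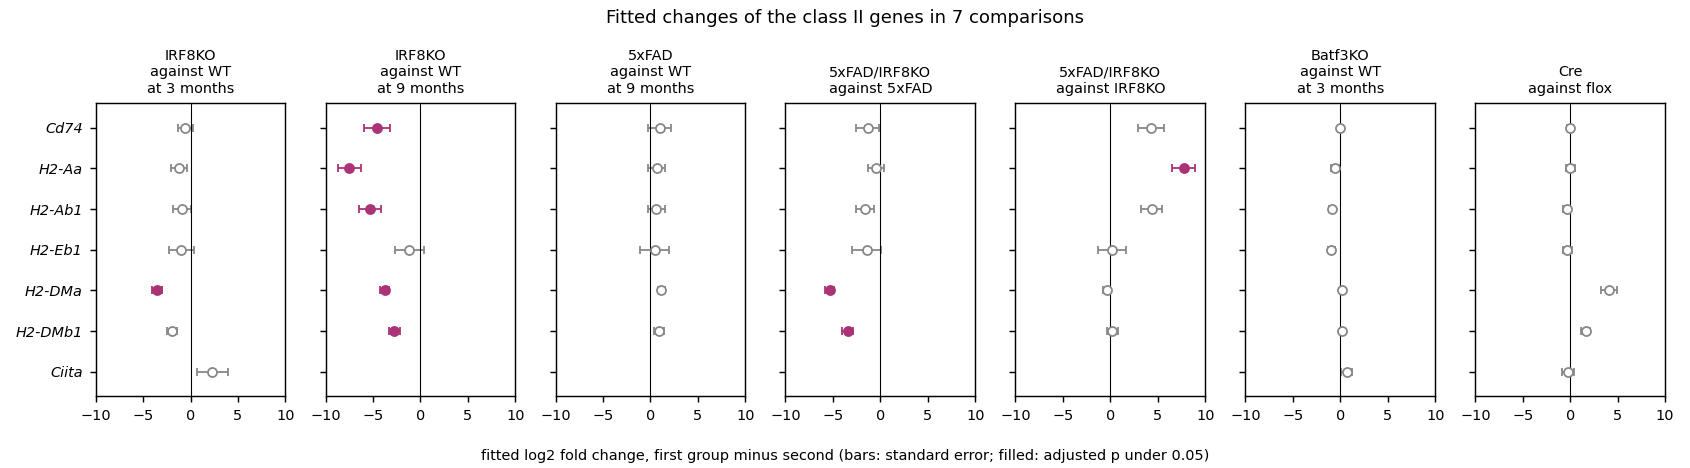
Log2 fold change of each member in each comparison, in 7 panels, as points with bars of 1 SE from edgeR's quasi-likelihood fit; filled points passed an adjusted p of 0.05. H2-DMa and H2-DMb1 are left of 0 in IRF8KO at 9 months (-3.78 and -2.76) and right of 0 in Cre against flox (4.07 and 1.61), and Cd74, H2-Aa and H2-Ab1 pass the threshold at 9 but not at 3 months.

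The amyloid model addressed what plaques do to microglia and whether that needs IRF8. Against WT at 9 months no member passed the test in 5xFAD, where 1.99% of genes were called; at an unadjusted p under 0.05 there were 1 member, H2-DMa, and 1637 genes. Log2 changes were 1.00 (SE 1.21) for Cd74, 1.16 (SE 0.4, adjusted p = 0.218) for H2-DMa, 0.91 (SE 0.561) for H2-DMb1 and 0.44 to 0.65 for the 3 chains. The libraries of the 2 groups did not overlap for Cd74, H2-DMa and H2-DMb1, 3 of 6 members, and for 43.5% of all genes. A fit of only these 2 groups called 4546 genes and these same 3 members, with adjusted p of 0.00361, 0.000963 and 0.00174, where the wider fit estimates the spread over all 4 groups of that age. All 3 WT libraries had Y-linked reads and no Xist, and 2 of the 3 5xFAD libraries had Xist and no Y-linked reads, so sex-linked signal moved with the group. A fit with the sex score called none.

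Within 5xFAD, both H2-DM genes were lower without IRF8: 2 of 6 members were called, where 27.8% of genes were called and 9.72% were called lower. H2-DMa fell by 5.33 (SE 0.475, adjusted p = 1.09e-05) and H2-DMb1 fell by 3.45 (SE 0.61, adjusted p = 0.00145). H2-Ab1, Cd74, H2-Eb1 and H2-Aa had log2 changes of -1.60, -1.33, -1.42 and -0.42, with adjusted p from 0.233 to 0.762. The H2-Aa levels of 9.25 to 15.0 CPM in 5xFAD/IRF8KO lay inside the 9.06 to 30.7 CPM of 5xFAD. Microglial markers summed to 53100 to 60200 CPM in 5xFAD and 6980 to 8520 CPM in 5xFAD/IRF8KO, neutrophil markers to 0.336 to 2.07 and 82200 to 146000 CPM, and border macrophage markers to 16.4 to 37.5 and 1060 to 1240 CPM. Their part in these changes was not tested.

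Between the 2 groups without IRF8 at 9 months, H2-Aa was higher with 5xFAD. It was the 1 member called of 6, where 0.164% of genes were called and 0.123% were called higher. Its summed counts were 442 of 37489078 in 5xFAD/IRF8KO against 1 of 23542205 in IRF8KO, a ratio of 278 (95% exact interval 49.6 to 10988; adjusted p = 0.0312). Cd74 had a log2 change of 4.26 (SE 1.39, adjusted p = 0.213) and H2-Ab1 4.35 (SE 1.09, adjusted p = 0.139), and H2-DMa, H2-DMb1 and H2-Eb1 had -0.39, 0.21 and 0.20. Without 5xFAD/IRF8KO replicate 3, the library with no Cd74 count, Cd74 had 4.85 (adjusted p = 0.00826) and was called, and without IRF8KO replicate 1 H2-Ab1 had 6.57 (adjusted p = 0.0395). The H2-Aa call was lost with voom, with the replicate block, with the sex score and in a fit of only these groups. Microglial markers summed to 3670 to 9040 CPM in IRF8KO and 6980 to 8520 CPM in 5xFAD/IRF8KO, where the microglial factor Sall1 had no count in any library; B cell markers summed to 101 to 1390 and 277 to 548 CPM. Border macrophage markers did not overlap, at 727 to 871 CPM in IRF8KO and 1060 to 1240 CPM in 5xFAD/IRF8KO, and monocyte markers were at 721 to 1600 and 1520 to 2370 CPM. The part of these cells was not tested.

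Whether the 5xFAD effect depends on IRF8 was tested as an interaction, for which 0 of 6 members and 0.438% of genes were called. At an unadjusted p under 0.05 there were 3 members and 2146 genes. The largest interaction was 7.09 for H2-Aa (SE 1.44, adjusted p = 0.0612), which rests on the 1 H2-Aa count in IRF8KO, followed by 3.71 for H2-Ab1 and 3.25 for Cd74. Without 5xFAD/IRF8KO replicate 3, Cd74 at 3.84 and H2-Aa at 6.89 were called (adjusted p = 0.0353 and 0.0468), and without IRF8KO replicate 3 H2-Aa was called. H2-DMa had -1.56 (adjusted p = 0.224).

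Batf3-/- mice address whether a partner factor of IRF8 is needed. No member passed the test, where 3.83% of 13128 genes were called; 2 members and 2415 genes had an unadjusted p under 0.05. H2-DMa and H2-DMb1 both had log2 changes of 0.14 (SE 0.0777 and 0.0827, adjusted p = 0.387 and 0.394), and Cd74 had -0.01 (SE 0.132). The 3 chains were at -0.55 (H2-Aa, SE 0.473), -0.92 (H2-Ab1, SE 0.258, adjusted p = 0.0678, or -1.27 and 0.0122 without Batf3-/- replicate 3) and -0.97 (H2-Eb1, SE 0.363, adjusted p = 0.172). Libraries did not overlap for H2-Eb1, H2-DMa and H2-DMb1, 3 of 7 members, against 24% of all genes. In Batf3-/- H2-DMa was 524 CPM ± 8.33 (SD, n = 3) and H2-DMb1 was 196.5 CPM ± 2.97 (SD, n = 3); 3.03% and 2.9% of genes had a smaller SD of log2(CPM + 0.5) there. Batf3 RNA was 23.1 to 26.8 CPM in WT and 0.441 to 0.529 CPM in Batf3-/-.

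In the conditional experiment the question was what loss of IRF8 after birth does in Cx3cr1-expressing cells. No gene passed the test over the 7 libraries, so 0% of 15512 genes were called, with 1407 genes and 2 members at an unadjusted p under 0.05. H2-DMa had a log2 change of 4.07 (SE 0.842, adjusted p = 0.19) and H2-DMb1 1.61 (SE 0.451, adjusted p = 0.249). Cd74, H2-Aa, H2-Eb1, H2-Ab1 and Ciita lay between -0.38 and -0.01. Without the library labelled Cre replicate 1, 952 genes were called, H2-DMa rose by 4.47 (SE 0.209, adjusted p = 2.18e-11), H2-DMb1 rose by 1.92 (SE 0.246, adjusted p = 1.91e-05) and H2-Ab1 fell by 0.86 (SE 0.228, adjusted p = 0.0243). The library labelled Cre replicate 1 was left out there because its Irf8 went against its label. As labelled, the 3 other Cre libraries held less Irf8 and more H2-DM RNA than IRF8flox, the opposite H2-DM direction to the germline mice. The IRF8flox libraries and the library labelled Cre replicate 1 had H2-DMa and Batf3 nearer to the germline IRF8KO than to the WT libraries, so each direction here holds only as labelled, and the labels were checked against Irf8 alone. Batf3 levels had the same order: 4.56, 4.31 and 2.02 CPM in IRF8flox, 33.04, 70.6 and 41.7 CPM in Cre replicates 2 to 4, and 1.42 CPM for the library labelled Cre replicate 1. Border macrophage markers were 122 to 170 CPM in IRF8flox and 214 CPM in the library labelled Cre replicate 1, the highest of its group, where the lowest was 7.42 CPM; their part was not tested.

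**Figure D3:**
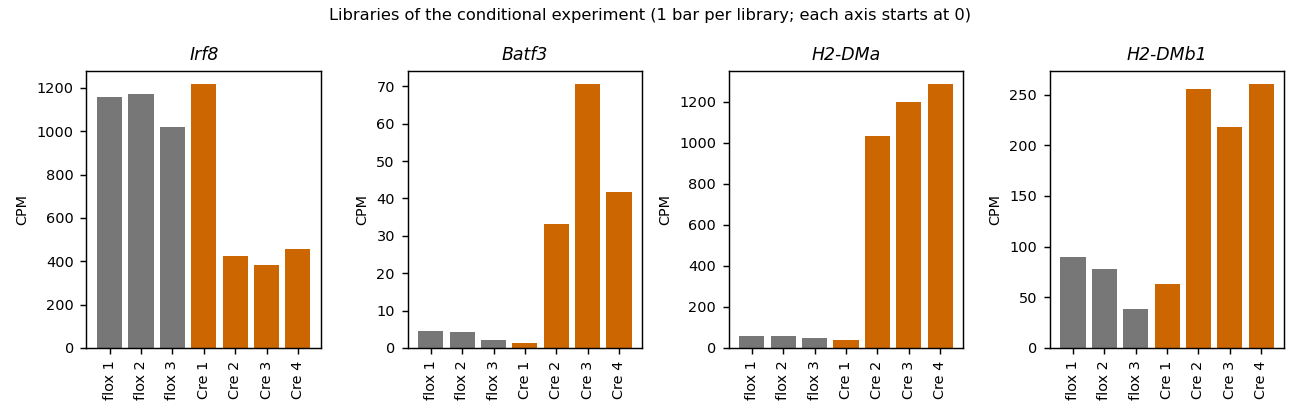
Levels of Irf8, Batf3, H2-DMa and H2-DMb1 in the 7 libraries of the conditional experiment, in CPM on axes that start at 0; each bar is 1 library, grey for IRF8flox and orange for Cre. For H2-DMa the library labelled Cre replicate 1, at 36.2 CPM, is below the IRF8flox libraries, and the other Cre libraries are at 1035 to 1286 CPM.

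The Cre effect differed from the germline IRF8KO effect at 3 months for 2 of 7 members, H2-DMa by a log2 difference of 7.71 (SE 1.12, adjusted p = 0.000899) and H2-DMb1 by 3.62 (SE 0.816, adjusted p = 0.0133); 7.04% of 17361 genes were called and 4.37% were called higher. Batf3, which is not a member, had a difference of 8.75 (adjusted p = 0.00147). Without IRF8flox replicate 3 the H2-DMb1 difference was 3.34 (adjusted p = 0.0537), and without WT replicate 3 of the IRF8KO experiment Ciita was called at -8.42 (adjusted p = 0.0249). The other 5 members did not pass the test with all libraries. This comparison sets the groups as labelled against each other, including the library labelled Cre replicate 1.

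The WT controls of different experiments were not alike in class II chains. At the same age of 3 months, WT of the IRF8KO experiment stood above WT of the Batf3KO experiment in 4 of 6 members, where 42.8% of genes were called and 26.5% were called higher. Cd74 was higher by 3.38 (SE 0.902, adjusted p = 0.0131), H2-Aa by 5.65 (SE 1.19, adjusted p = 0.00436), H2-Ab1 by 3.96 (SE 1.13, adjusted p = 0.0176) and H2-Eb1 by 5.58 (SE 1.81, adjusted p = 0.0307). H2-DMa and H2-DMb1 had 0.08 (SE 0.501) and -0.04 (SE 0.57). The number of members called fell to 3 without WT replicate 1 of the IRF8KO experiment and to 1 without any of the 3 WT libraries of the Batf3KO experiment. Irf8 RNA itself fell by 1.84 from the Batf3KO to the IRF8KO experiment (adjusted p = 0.000809). Cd79a was 76.3 to 232 CPM in WT of the IRF8KO experiment and 0.243 to 1.08 CPM in WT of the Batf3KO experiment. Summed over 9 B cell markers the same groups overlapped, at 472 to 2010 and 848 to 933 CPM. Microglial markers summed to 11900 to 22000 and 66800 to 69000 CPM, and neutrophil markers to 8530 to 53800 and 1.89 to 4.77 CPM. Red blood cell markers summed to 30500 to 103000 and 100 to 221 CPM. WT of the IRF8KO experiment held 3 libraries with Y-linked reads and 1 with neither kind, and the other WT 3 with Xist only. The part of these cells was not tested, and the experiment, the cell makeup and the sex-linked signal cannot be told apart.

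The spread between libraries of 1 group separated the members. Pooled over the 10 groups, the SD of log2(CPM + 0.5) was 2.02 for H2-Eb1 and 1.57 for Cd74, larger than for 99.9% and 98.8% of 13971 genes, against a median of 0.765. The Cd74 value rested on 5xFAD/IRF8KO replicate 3, with no Cd74 count: without it the SD was 0.882, larger than for 65.1% of genes. Without WT replicate 2 at 3 months, with no H2-Eb1 count, that of H2-Eb1 was 1.45, larger than for 97.4%. H2-Ab1 had 1.22, H2-Aa 1.13, H2-DMa 1.04, Ciita 1.00 and H2-DMb1 0.819, the last larger than 54.8% of genes. Most of the H2-DMa spread lay in Cre, with an SD of 2.5, larger than for 99.9% of genes there, and without the library labelled Cre replicate 1 the pooled H2-DMa value was 0.537. The 4 chain genes summed to 279 to 4619 CPM in WT at 3 months of the IRF8KO experiment and to 5.30 to 11.8 CPM in IRF8KO at 9 months.

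**Figure D4:**
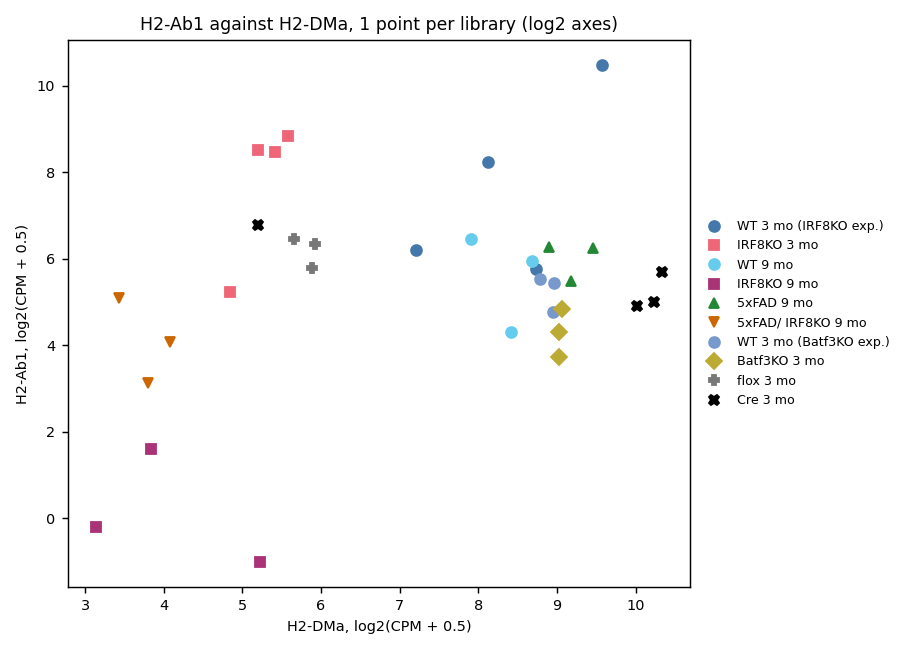
H2-Ab1 (vertical axis) against H2-DMa (horizontal axis) in the 33 libraries, both as log2(CPM + 0.5); each point is 1 library, and colour and shape give the group. The germline IRF8KO and IRF8flox libraries lie to the left, at most 60.4 CPM of H2-DMa, and the 4 IRF8KO libraries at 3 months span 37.3 to 458 CPM of H2-Ab1 there.

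Members moved together in 2 sets. As a description over the 33 libraries' deviations from their group means, which share library depth and makeup, H2-Ab1 correlated with H2-Aa at r = 0.82 and with H2-Eb1 at r = 0.87, and H2-DMa with H2-DMb1 at r = 0.68; H2-Ab1 and H2-DMa had r = -0.08. Without the 2 libraries farthest from their group means in the first gene of each pair, leaving 31, these values were 0.70, 0.80, 0.66 and -0.30. Cd74 and H2-Ab1 had r = 0.53. With 31 libraries this was 0.66 without the 2 farthest in Cd74, and 0.41 without the 2 farthest in H2-Ab1. Over the 10 group means, Cd74 and H2-Ab1 had r = 0.96, H2-DMa and H2-DMb1 r = 0.96, and H2-Aa and H2-DMa r = 0.19. Per length, the ratio of Cd74 to H2-Ab1 had a median of 3.58 and ran from 1.21 to 10.2 over 29 libraries with enough counts of both. Over group means the genes most like Cd74 outside the class II genes were Acbd4 (r = 0.961) and Otub2 (r = 0.948), over 10 groups. By deviations they were Grap (r = 0.893), Gmppb (r = 0.882) and Slc2a6 (r = 0.878), but these fell to between 0.57 and 0.62 without 5xFAD/IRF8KO replicate 3, where these genes, like Cd74, were at or near 0.

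A list of 31 other genes of the class II pathway was followed beside the members: other chains, X and Y box factors, the interferon gamma route to Ciita, proteases, turnover factors and costimulators. In IRF8KO at 9 months 11 of the 29 tested fell and none rose, with a median log2 change of -1.08, where 8.68% of all genes fell and 19.6% rose. At 3 months 4 of 30 fell and 2 rose, with a median of -0.06, where 3.24% of all genes fell and 4.15% rose. In 5xFAD/IRF8KO against 5xFAD 12 of 29 fell and 3 rose, with a median of -1.56, where 9.72% of all genes fell and 18% rose. The corresponding medians over all genes were 0.25, -0.02 and 0.24. The proteases and related genes that degrade the invariant chain and antigen contributed most: 6 of 7 fell at 9 months and 6 of 7 within 5xFAD, and 3 of 7 fell at 3 months. Lgmn, an asparagine-specific endosomal protease, was at 618 CPM ± 196 (SD, n = 3) in IRF8KO and 5470 CPM ± 367 (SD, n = 3) in WT at 9 months and fell by 2.76 in log2 units (SE 0.299, adjusted p = 4.11e-05). Ctss, the cathepsin that makes the last cuts of the invariant chain, fell by 2.02 at 3 months (SE 0.5, adjusted p = 0.0306) and by 2.99 in 5xFAD/IRF8KO against 5xFAD (SE 0.233, adjusted p = 4.73e-06). H2-Ob, the beta chain of the H2-DM inhibitor H2-O, fell by 6.30 at 9 months (SE 1.98, adjusted p = 0.032), with no count in IRF8KO replicates 1 and 2. Its levels were uneven, at 1.77 CPM ± 3.06 (SD, n = 3) in IRF8KO and 172 CPM ± 160 (SD, n = 3) in WT. Those replicates also had no count for other genes well covered in their group, as given for H2-Aa. Microglial markers were lower in the same IRF8KO and 5xFAD/IRF8KO libraries, as given above, and their part in these counts was not tested.

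Between the WT controls 9 of 30 pathway genes were lower in the IRF8KO experiment and 1 was higher, where 16.3% of all genes were called lower and 26.5% higher. Icosl, a costimulatory ligand, was at 29.8 CPM ± 16.2 (SD, n = 4) against 224 CPM ± 14.5 (SD, n = 3), a log2 difference of -2.63 (SE 0.396, adjusted p = 0.000864). Sppl2a, which clears the last membrane fragment of the invariant chain, had -2.20 (SE 0.389, adjusted p = 0.00186), and Nfyb, a Y box subunit gene, had 1.86 (SE 0.449, adjusted p = 0.00837). For the IRF8KO effect by age 4 of 30 were called, all lower at 9 months, beside 5.92% of all genes called lower. For the Cre against the IRF8KO effect 6 of 30 were called, all higher, beside 4.37% of all genes called higher. In 5xFAD against WT 2 of 29 rose, where 1.81% of all genes rose, the lysosomal proteases Ctsl by 1.29 (SE 0.283, adjusted p = 0.0412) and Ctsb by 1.18 (SE 0.25, adjusted p = 0.0357). In Batf3-/- the thiol reductase gene Ifi30, which opens disulphide bonds of antigen, rose by 0.45 (SE 0.0913, adjusted p = 0.0142), and Lgmn fell by 0.30 (SE 0.0605, adjusted p = 0.0143). Cre against flox called none of 30, with 8 at an unadjusted p under 0.05. Rfx5, the DNA-binding subunit of the X box complex, fell in 5xFAD/IRF8KO against 5xFAD (adjusted p = 0.0094): it had 143 counts of 19293018 in 5xFAD and 3 of 37489078 in 5xFAD/IRF8KO, a ratio of 92.6 (95% exact interval 31.1 to 454). The Y box subunit gene Nfya fell by 3.87 (SE 1.03, adjusted p = 0.0149).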

How the data were processed

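Each of the 33 libraries was made from total RNA of FACS-sorted microglia with SMART-Seq v4 and Nextera XT and read as 2x55 paired ends, per the labels' protocols. The deposited values are whole-number counts per gene in the layout that STAR writes; the submitters' processing notes name bcl2fastq, STAR 2.5.2b, Picard 2.17.11, Subread and featureCounts with the build mm10, without their roles. The unstranded column was used, since the strand columns split 49.5% to 50.1%. Rows that name no gene were left out, and 47.3% to 78.6% of reads were in genes. Of 54146 gene identifiers, 54079 were found in the GRCm38 annotation when versions were ignored. No 2 libraries agreed within sampling noise (lowest chi-square per gene 2.31).

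Groups followed the genotype, age and experiment in the labels. Comparisons used edgeR 4.0.16 in R 4.3.3: TMM scaling, its default filter on low counts, the quasi-likelihood test and Benjamini-Hochberg adjustment over all genes tested, called at 0.05. The 4 groups at 9 months shared one fit, and the other comparisons used only their groups. The test was checked on simulated data. Levels are CPM without TMM scaling, and spread was taken on log2(CPM + 0.5). Alternatives were DESeq2 size factors in edgeR, DESeq2 1.42.0, limma 3.58.1 voom with quality weights, no filter, all libraries in one model, only the groups compared, a replicate block, a sex score and leaving out each library. Intervals of count ratios are exact at 95%, and the limit for a count of 0 is 3 counts. Up to 4 other pathway genes per comparison were named, those with the largest change among genes that passed the test with non-overlapping libraries and a group mean of at least 5 CPM (1 such gene is not reported here); genes like Cd74 were taken by the highest Pearson r.

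The members, the pathway list and the marker lists were chosen with earlier results of these data known.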

Additional observations from a re-analysis of the deposited data

Results flagged for a closer look

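In 5 of the 21 sets of 4 libraries tested for a library far from the others, 1 library stood apart. The usual chance rate of about 1 in 20 assumes independent, normally spread values. These levels were skewed and shared libraries between members, so that rate is no yardstick here. A set with counts in only 1 library, as for Ciita in WT at 3 months, is marked whatever the level. H2-Aa was 741 CPM in WT replicate 1 at 3 months of the IRF8KO experiment, with the next at 123 CPM, and H2-Eb1 was 560 CPM in the same library, with the next at 94.1 CPM. H2-Aa was 41.4 CPM in the library labelled Cre replicate 1, with the other Cre libraries at 8.03 to 10.5 CPM. Ciita was 3.35 CPM in WT replicate 3 at 3 months of the IRF8KO experiment, where the other 3 libraries had no count, and 3.74 CPM in the library labelled Cre replicate 1.

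In 4 of 20 tests of a difference between effects, the difference passed the threshold. The IRF8KO effect differed between 9 and 3 months by -3.98 on the log2 scale for Cd74 and by -6.08 for H2-Aa. The WT controls of these ages were of unlike cell makeup. The Cre effect differed from the germline IRF8KO effect at 3 months by 7.71 for H2-DMa and by 3.62 for H2-DMb1, with the groups as labelled.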

How the results depend on the processing

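Counts of members called depended on the test. At 3 months 1 member was called in IRF8KO, against 2 with DESeq2 size factors in edgeR, DESeq2, voom or all libraries in one model, 3 without a filter, 0 with the sex score, and 1 to 2 without 1 library. At 9 months 5 became 2 with voom and 4 to 5 without 1 library. For 5xFAD against WT 0 became 3 with voom or only the 2 groups, and 0 without any 1 library. For 5xFAD/IRF8KO against IRF8KO 1 became 3 with DESeq2, no filter or one model, 0 with voom, the replicate block, the sex score or only the 2 groups, and 1 to 2 without 1 library. The interaction went from 0 to 1 (DESeq2, one model) or 2 (no filter), and 0 to 2 without 1 library. Batf3-/- went from 0 to 1 with voom or no filter, and 0 to 1 without 1 library. Cre against flox went from 0 to 1 (DESeq2, one model) or 2 (voom, no filter), and 0 to 3 without 1 library. The WT controls had 3 to 4 of 4 in the other tests and 1 to 4 without 1 library; the IRF8KO effect at 9 against 3 months went from 2 to 0 with voom, and 1 to 3 without 1 library; the Cre against IRF8KO effect had 1 to 3 without 1 library. The cause was not tested.

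These values reversed in sign; none was called in either fit. In IRF8KO at 3 months, voom gave H2-Eb1 3.86, the replicate block gave Cd74 0.04 and H2-Eb1 1.01, and the sex score gave Cd74 2.22, H2-Aa 2.62, H2-Ab1 2.57, H2-Eb1 2.92, H2-DMb1 0.51 and Ciita -4.68. With the sex score, 5xFAD against WT had H2-Aa -0.30 and H2-Eb1 -1, 5xFAD/IRF8KO against 5xFAD had H2-Aa 0.22, and the interaction had H2-Eb1 1.98 and H2-DMb1 0.19. The WT controls had H2-DMa -0.01 with voom and one model and -0.02 with no filter. The IRF8KO effect at 9 against 3 months had H2-Eb1 0.12 and H2-DMa 0.07 with DESeq2 size factors, and 0.01 and 0.07 with DESeq2. The Cre against IRF8KO effect had Cd74 -0.06, H2-Aa -0.35, H2-Ab1 -0.79 and H2-Eb1 -4.08 with voom.

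Same replicate numbers did not pair the libraries: correlations of same-numbered deviations ran from -0.185 to 0.173. With the replicate block, H2-Eb1 had -0.05 in 5xFAD/IRF8KO against IRF8KO, H2-DMb1 had 0.03 between the WT controls, and H2-Ab1 had -0.38 and H2-Eb1 -0.55 in the Cre against IRF8KO effect.

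Leaving out 1 library turned the sign of these log2 changes, given with their lowest and highest values. In IRF8KO at 3 months: Cd74 -0.89 to 0.90, H2-Aa -1.61 to 0.60, H2-Ab1 -1.25 to 1.07, H2-Eb1 -1.37 to 1.28. H2-Aa was -0.03 to 1.08 in 5xFAD against WT and -0.72 to 0.26 in 5xFAD/IRF8KO against 5xFAD. In 5xFAD/IRF8KO against IRF8KO: H2-DMa -0.71 to 0.25, H2-DMb1 -0.27 to 1.15, H2-Eb1 -1.01 to 2.77. In the interaction: H2-DMb1 -1.14 to 0.29, H2-Eb1 -1.47 to 2.38. Cd74 in Batf3-/- was -0.16 to 0.12. In Cre against flox: Cd74 -0.32 to 0.32, H2-Aa -0.78 to 0.30, H2-Eb1 -0.76 to 0.00, Ciita -1.02 to 0.01. Between the WT controls: H2-DMa -0.48 to 0.41, H2-DMb1 -0.81 to 0.32. In the IRF8KO effect by age: H2-DMa -0.75 to 0.19, H2-Eb1 -2.62 to 0.47. In the Cre against IRF8KO effect: Cd74 -0.77 to 0.95, H2-Aa -0.44 to 1.68, H2-Ab1 -1.25 to 0.95, H2-Eb1 -1.40 to 1.14. Where a library was left out of 3, its group's spread was estimated over all groups of the fit. Few counts limited Ciita, with 2 to 122 in a group, and H2-Aa in IRF8KO at 9 months, with 1.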
